A study of Mus musculus with 15 samples.

Results

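A set of 40 genes that cells switch on for G2 and mitosis was followed in immortalised mouse blood progenitors that carry both copies of Ddx41 or only 1 of them. The genes were taken by symbol from a list that covers the mitotic cyclins and kinases (Ccna2, Ccnb1, Ccnb2, Cdk1, Cdc25b, Cdc25c, Plk1, Aurka, Nek2), the factors that trigger chromosome separation (Cdc20, Ube2c, Pttg1, Espl1) and the spindle assembly checkpoint (Bub1, Bub1b, Bub3, Mad2l1, Ttk). It also holds centromere and kinetochore genes (Cenpa, Cenpe, Cenpf, Ndc80, Nuf2, Spc24, Spc25), the chromosomal passenger genes Birc5 and Incenp, kinesins and spindle genes (Kif11, Kif2c, Kif20a, Kif4, Kif18b, Tpx2, Hmmr) and chromosome structure genes (Top2a, Ncapd2, Ncapg, Smc2, Smc4, Mki67). All 40 were found among the 55359 genes of the deposited tables, and all 40 were among the 14548 genes with enough counts to be tested. The rule that picks them uses no measured value, but the list was drawn up with earlier results of these data known.

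The cells were hematopoietic progenitors of fetal liver, immortalised with Hoxb8 and grown in medium with β-estradiol. Those written hi-Ddx41+/- have 1 knockout allele of Ddx41, which encodes a DEAD-box RNA helicase, and those written hi-Ddx41+/+ are wild type. Each culture was exposed to retrovirus for 2 days and sorted for GFP. The hi-Ddx41+/- cells received a vector with wild-type DDX41 (Het DDX41), with the disease-associated mutant G173R (Het G173R) or R525H (Het R525H), or an empty vector (Het empty), and hi-Ddx41+/+ cells received the empty vector (WT empty). Each of these 5 groups has 3 total RNA libraries, numbered 1 to 3, and all groups share the Hoxb8 immortalisation, the infection and the sort. The labels do not say whether the 3 libraries of a group came from separate cultures or how many lines stand for each genotype, so a p-value here measures the spread between libraries, which may be technical, and genotype and line cannot be told apart.

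In G2 and mitosis, CDK1 bound to cyclin A or cyclin B drives the cell into chromosome condensation and spindle assembly, with Aurora and Polo kinases as partners. The spindle assembly checkpoint holds back CDC20, the activator of the anaphase-promoting complex, until kinetochores are attached to microtubules. The complex then marks securin and the cyclins for destruction, and separase cuts the cohesin that holds sister chromatids together. Many of these genes are transcribed together late in the cell cycle. They are held down in quiescent cells by the DREAM complex and switched on by MYB-MuvB and FOXM1, through promoter elements known as the cell cycle homology region and through CCAAT boxes bound by NF-Y.

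Promoter windows from RefSeq (GRCm38.p6, 250 bases before to 50 bases after a gene's start) were held for 33 of the 40 genes, with 2 starts for Bub3 and hence 34 windows. The homology region was searched as TTTGAA or TTCGAA and the box as CCAAT, on both strands, and no homology region match overlapped a CCAAT match. The homology region letters stood in 27 of 34 windows (79.4%), against 19.2% of all 32851 windows in the table. CCAAT stood in 28 of 34 windows (82.4%), against 37.4% of all windows, and both stood in 25 (73.5%), against 7.52%. Among 113 other G2 and mitosis genes 44.6% of 112 windows held the homology region letters, and among 40 genes of DNA replication and S phase 15.8% of 38 windows did. The 7 windows with the homology region within 40 bases before the start are shown for the 100 bases before the start, in the direction of transcription. More windows than these held the letters within the 50 bases after the start, among them those of Plk1, Bub1, Ccnb2, Cenpf, Hmmr and Ttk. Those bases are not shown. Capitals mark TTTGAA, its reverse TTCAAA, and CCAAT or its reverse ATTGG.

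Cdk1, the mitotic kinase, chr10:69352913-69353012, minus strand: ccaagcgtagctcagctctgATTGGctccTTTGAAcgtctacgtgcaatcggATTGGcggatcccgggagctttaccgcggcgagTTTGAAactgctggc

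Cdc20, the activator of the anaphase-promoting complex, chr4:118437344-118437443, minus strand: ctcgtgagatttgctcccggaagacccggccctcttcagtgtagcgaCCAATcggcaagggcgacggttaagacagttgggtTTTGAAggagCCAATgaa

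Ube2c, the ubiquitin-conjugating enzyme of the anaphase-promoting complex, chr2:164769829-164769928, plus strand: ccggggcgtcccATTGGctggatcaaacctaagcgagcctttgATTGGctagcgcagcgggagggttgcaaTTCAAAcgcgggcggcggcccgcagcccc

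Espl1, separase, chr15:102296193-102296292, plus strand: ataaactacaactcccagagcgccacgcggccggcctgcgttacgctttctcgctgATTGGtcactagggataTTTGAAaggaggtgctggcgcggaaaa

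Kif11, the kinesin that pushes spindle poles apart, chr19:37376282-37376381, plus strand: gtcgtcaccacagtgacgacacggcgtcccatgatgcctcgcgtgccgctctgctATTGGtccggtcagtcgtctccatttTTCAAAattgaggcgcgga

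Top2a, topoisomerase II alpha, which untangles sister DNA, chr11:99024190-99024289, minus strand: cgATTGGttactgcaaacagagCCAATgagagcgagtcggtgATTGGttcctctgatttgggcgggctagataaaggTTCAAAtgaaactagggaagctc

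Ncapg, a condensin subunit, chr5:45669825-45669924, plus strand: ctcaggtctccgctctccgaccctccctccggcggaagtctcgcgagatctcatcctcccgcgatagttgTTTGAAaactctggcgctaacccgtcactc

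These letters are a description of the windows and not a measure of binding. As a check, the last bases of each window were looked for in GENCODE M21 transcripts of its gene. They were found for 29 of the 34 windows. Among those shown, only the last bases of the Kif11 window were not found. In Espl1, Kif11, Top2a and Ube2c every CCAAT shown lies farther from the start than the homology region. Cdc20 has a box on each side of it, Cdk1 has 2 copies of each element, and Ncapg has no box in the stretch shown.

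Libraries held 22104066 to 49145873 expected counts, and each of the 40 genes had at least 207 counts in every library. Ddx41 itself averaged 30.3 ± 2.34 CPM in Het empty libraries and 59.3 ± 3.94 CPM in WT empty libraries (SD, n = 3 each; CPM throughout are on TMM-scaled library totals), a log2 fold change of -0.97 (SE 0.115, adjusted p = 0.000138, edgeR quasi-likelihood test with Benjamini-Hochberg adjustment). Ddx41 was at 27.8 to 36.9 CPM in the libraries of the 3 DDX41 vectors, so counts on the mouse gene do not check which vector they carried. Groups here follow the sample titles, but the tables of all 12 hi-Ddx41+/- libraries are named with other codes, and those of Het G173R and Het R525H with the codes that the titles give to Het empty and Het DDX41. Which of the 2 names the vector was not tested, and every comparison that involves a hi-Ddx41+/- group rests on the titles; the codes leave the library numbers, the genotype and the WT empty libraries the same. The progenitor markers Kit, Cd34, Flt3, Myb, Spi1, Ptprc, Hoxa9 and Meis1 summed to 2830 to 3670 CPM, with Hoxa9 below 1 CPM, and 6 markers of liver cells and stroma summed to 0.0277 to 1.3 CPM, with Alb, Ttr, Col1a1 and Col3a1 at 0 in every library and Afp and Apoa1 above 0 in some. The 5 libraries numbered 3 differed from those numbered 1 and 2: with group in the model, 6707 of 14548 genes (46.1%) differed between them, while 0 genes differed between libraries 2 and 1 (1579 at an unadjusted p under 0.05). What the numbers mark is not given in the labels, so comparisons between groups are also given for libraries 1 and 2 alone.

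Together the 40 genes made up 0.645 to 0.754% of the TMM-scaled total of a library. TPM, which allow for gene length, were used to compare genes with each other (the plot of TPM by gene). Top2a had a mean of 234 TPM (199 to 277 over 15 libraries) and Cdk1 of 228 TPM (182 to 260), followed by Ccnb1, cyclin B1, at 111 TPM (96.6 to 130). The lowest levels were those of Cdc25b, a phosphatase that activates CDK1, at 6.02 TPM (4.97 to 7.12), of its relative Cdc25c at 11.2 TPM (9.17 to 16.4) and of the checkpoint kinase Ttk at 15 TPM (12 to 18.8). Top2a stood at percentile 97.7 of the genes tested and Cdc25b at percentile 45.1. Neighbours in this order mostly overlapped in their ranges, but the ranges of Cdk1 and Ccnb1 did not, nor did those of Cdc25c and Cdc25b.

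**Figure D1:**
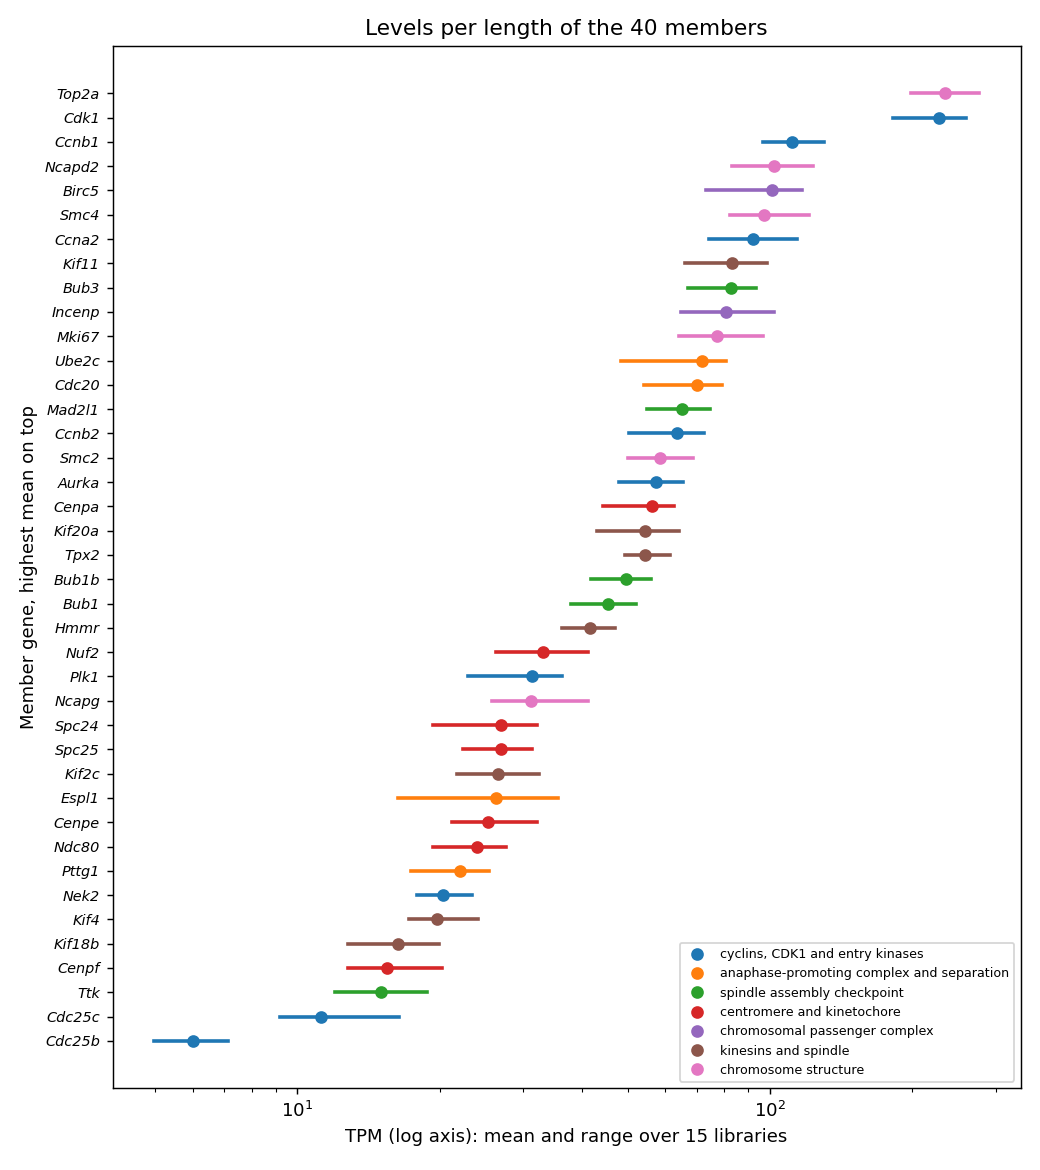
Mean TPM (points, log axis) and range over the 15 libraries (lines) of each of the 40 genes, highest on top and coloured by role. Top2a and Cdk1, at 234 and 228 TPM, stand apart from Ccnb1 at 111 TPM, and Cdc25b is lowest at 6.02 TPM.

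Heterozygous loss of Ddx41 was compared in cells with the empty vector. None of the 40 genes passed an adjusted p of 0.05 between Het empty and WT empty (edgeR with Benjamini-Hochberg adjustment over all 14548 genes, of which 532, or 3.66%, passed); 1 had an unadjusted p under 0.05, and DESeq2 and limma voom also called 0. Of the 40, 32 had a log2 fold change above 0, where 49.8% of all genes did, with a median of 0.06 beside -0.001 over all genes. The 95% interval of 37 of the 40 genes lay within 0.5 on the log2 scale on either side of 0. With the library number as a block, 0 of the 40 and 9.29% of all genes passed. In libraries 1 and 2 alone 33 were above 0 and the median was 0.035. Without WT empty library 3, in an unbalanced fit that keeps library 3 of Het empty, the median was 0.014, with 24 above 0. Summed over the 40 genes, Het empty libraries reached 7337 ± 205 CPM and WT empty libraries 7085 ± 453 CPM (SD, n = 3 each). In bulk RNA, a change in the share of cells in G2 and mitosis and a change in these mRNAs per cell cannot be told apart.

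Bub1, the checkpoint kinase that recruits other checkpoint proteins to kinetochores, had the smallest p of the 40 in this comparison. Its levels in libraries 1, 2 and 3 were 148, 160 and 148 CPM in Het empty and 136, 140 and 132 CPM in WT empty cells. The groups did not overlap, and the log2 fold change was 0.16 (SE 0.071, adjusted p = 0.379, edgeR). Bub3, the partner that docks Bub1 on kinetochores, was at 186, 196 and 189 CPM in Het empty and 167, 182 and 168 CPM in WT empty libraries. Plk1, Polo-like kinase, which acts from centrosome maturation to cytokinesis, had the largest log2 fold change, 0.27 (SE 0.197, adjusted p = 0.776). It was at 68.7, 75.4 and 70.7 CPM in Het empty and at 65.7, 65.6 and 47.4 CPM in WT empty cells. Library 3 of WT empty lay far below the other 5, and without it the log2 fold change of Plk1 was 0.13. Groups without overlap, Het empty higher, were found for Bub1, Bub3 and Plk1 among the 40 and for 8.33% of all genes; no gene of the 40 lay wholly lower in Het empty, as 8.82% of all genes did.

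Among the other genes named by the rule, the log2 fold change was 0.15 for Tpx2, an activator of Aurora A, 0.21 for Aurka, Aurora A itself, and 0.14 for Hmmr, a spindle protein; their groups overlapped. Cdc25c had the lowest value, -0.14 (SE 0.102). It was at 20.4, 19.2 and 21.4 CPM in Het empty and at 24.5, 23 and 19.9 CPM in WT empty libraries, which overlap. By role, all 4 genes of chromosome separation had a log2 fold change above 0 (median 0.15), and so did 7 of 9 cyclin and kinase genes and 3 of 6 chromosome structure genes, none of them called.

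**Figure D2:**
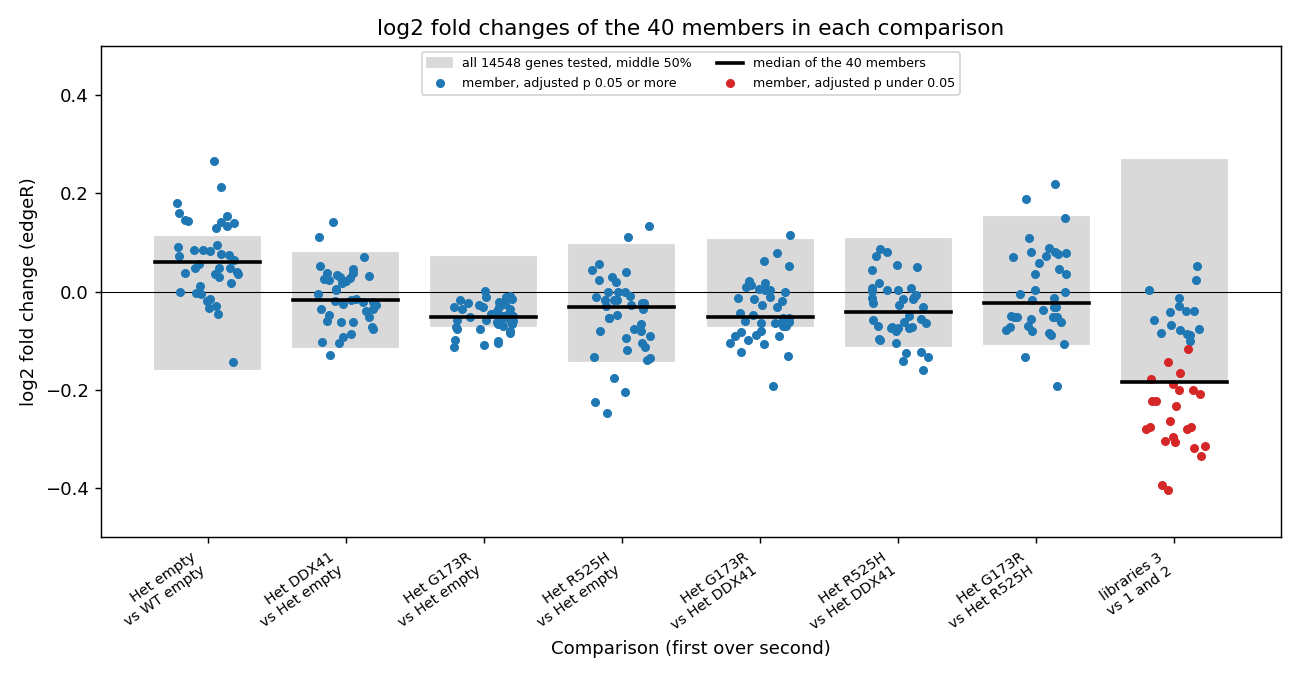
log2 fold change (edgeR) of each of the 40 genes (points) in 7 comparisons between groups and in libraries 3 over libraries 1 and 2, with their median (black bar) and the middle 50% of all 14548 genes tested (grey). Red points passed an adjusted p of 0.05; all 24 of them are in the comparison of libraries, where the median was -0.183.

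The vector with wild-type DDX41 was then set against the empty vector in the heterozygous cells. Between Het DDX41 and Het empty 0 of the 40 genes passed (edgeR, adjusted over all genes, of which 0% passed), with 0 of the 40 and 254 of all genes at an unadjusted p under 0.05 and 0 of the 40 called by DESeq2 or limma voom. Log2 fold changes ran between -0.13 for Pttg1, securin, and 0.14 for Spc25, a subunit of the NDC80 kinetochore complex. Leaving out 1 library moved Pttg1 to between -0.229 and -0.0217 and Spc25 to between 0.0646 and 0.184. Spc25 was at 37.1, 34.2 and 33.9 CPM in Het DDX41 and 28.8, 32.8 and 33.9 CPM in Het empty libraries, which touch at 33.9 after rounding. Pttg1 was at 11.1, 12.9 and 11.7 CPM in Het DDX41 and at 11.3, 12.7 and 15 CPM in Het empty cells, with overlap. Bub1 was at 170, 161 and 161 CPM in Het DDX41 libraries, all above the 148, 160 and 148 CPM of Het empty libraries, with a log2 fold change of 0.11 (SE 0.071). Bub1 and Spc25 were the only genes of the 40 wholly higher in Het DDX41, as 3.92% of all genes were, and 0 were wholly lower (3.33%). For Mki67, the proliferation marker Ki-67 that coats mitotic chromosomes, the log2 fold change was -0.09 and for Cdc25b -0.11. All 40 intervals lay within 0.5 of 0 on the log2 scale. Of the 40, 17 were above 0 (47.8% of all genes), and 24 were in libraries 1 and 2 alone.

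The 40 genes were also compared between the G173R vector and the empty vector. Between Het G173R and Het empty 0 of the 40 genes passed (edgeR, 0% of all genes), 0 had an unadjusted p under 0.05 (88 of all genes), and DESeq2 and limma voom called 0. Of the 40 log2 fold changes 39 were below 0, where 51.2% of all genes were, between -0.11 for Hmmr and 0.00088 for the condensin gene Ncapd2, with a median of -0.05. Without library 3 of Het G173R, in an unbalanced fit that keeps library 3 of Het empty, 22 of the 40 were above 0 and the median was 0.0086. In libraries 1 and 2 alone 17 were above 0 with a median of -0.0052, so this one-sidedness rested on libraries 3. Ccnb1 shows it: it was at 257, 272 and 222 CPM in Het G173R and at 256, 271 and 282 CPM in Het empty libraries, nearly the same in libraries 1 and 2 and apart in library 3 (log2 fold change -0.11, SE 0.085). Hmmr was at 162, 164 and 148 CPM in Het G173R against 164, 173 and 176 CPM in Het empty cells. Cenpe, a kinetochore motor, Kif18b, a kinesin that shortens microtubules, and Mki67 had log2 fold changes of -0.07, -0.1 and -0.08. No gene of the 40 had groups without overlap (1.65% of all genes lay wholly higher and 1.27% wholly lower).

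With the R525H vector Mki67 was the gene of the 40 with the smallest p. It was at 812, 744 and 745 CPM in Het R525H and at 955, 826 and 910 CPM in Het empty libraries, without overlap, and averaged 767 ± 39.3 CPM and 897 ± 65.6 CPM (SD, n = 3 each). The log2 fold change was -0.23 (SE 0.074), but the adjusted p was 0.676 (edgeR), so that no gene of the 40 passed between Het R525H and Het empty (edgeR; 2 of all genes, 0.0137%, did); 1 of the 40 had an unadjusted p under 0.05, and DESeq2 and limma voom called 0. Mki67 also stood lower in library 2 than in library 1 in all 5 groups (log2 fold change -0.12, adjusted p = 0.403), a comparison made after its values were seen.

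Cdc25b had the lowest log2 fold change, -0.25 (SE 0.117), at 13.9, 15.8 and 17.1 CPM in Het R525H against 17.5, 19.6 and 18.4 CPM in Het empty libraries. Kif18b was at 51.9, 54.8 and 43.2 CPM in Het R525H and 55.2, 57.9 and 56.4 CPM in Het empty cells (-0.18, SE 0.096). Both lay wholly lower in Het R525H, as Mki67 did; 5.22% of all genes lay so. Another pair lay wholly higher, as 6.39% of all genes did: Ncapg, at 126, 133 and 125 CPM in Het R525H and 120, 121 and 109 CPM in Het empty libraries (0.13, SE 0.077), and Ndc80, which binds microtubules at kinetochores. Cenpa, the histone that marks centromeres, had a log2 fold change of -0.14 with overlapping groups. Of the 40, 8 were above 0 (median -0.03), where 48.3% of all genes were, but 19 were in libraries 1 and 2 alone. Without library 3 of Het R525H 24 were above 0, in an unbalanced fit that keeps library 3 of Het empty. The 95% intervals of 38 genes lay within 0.5 of 0.

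**Figure D3:**
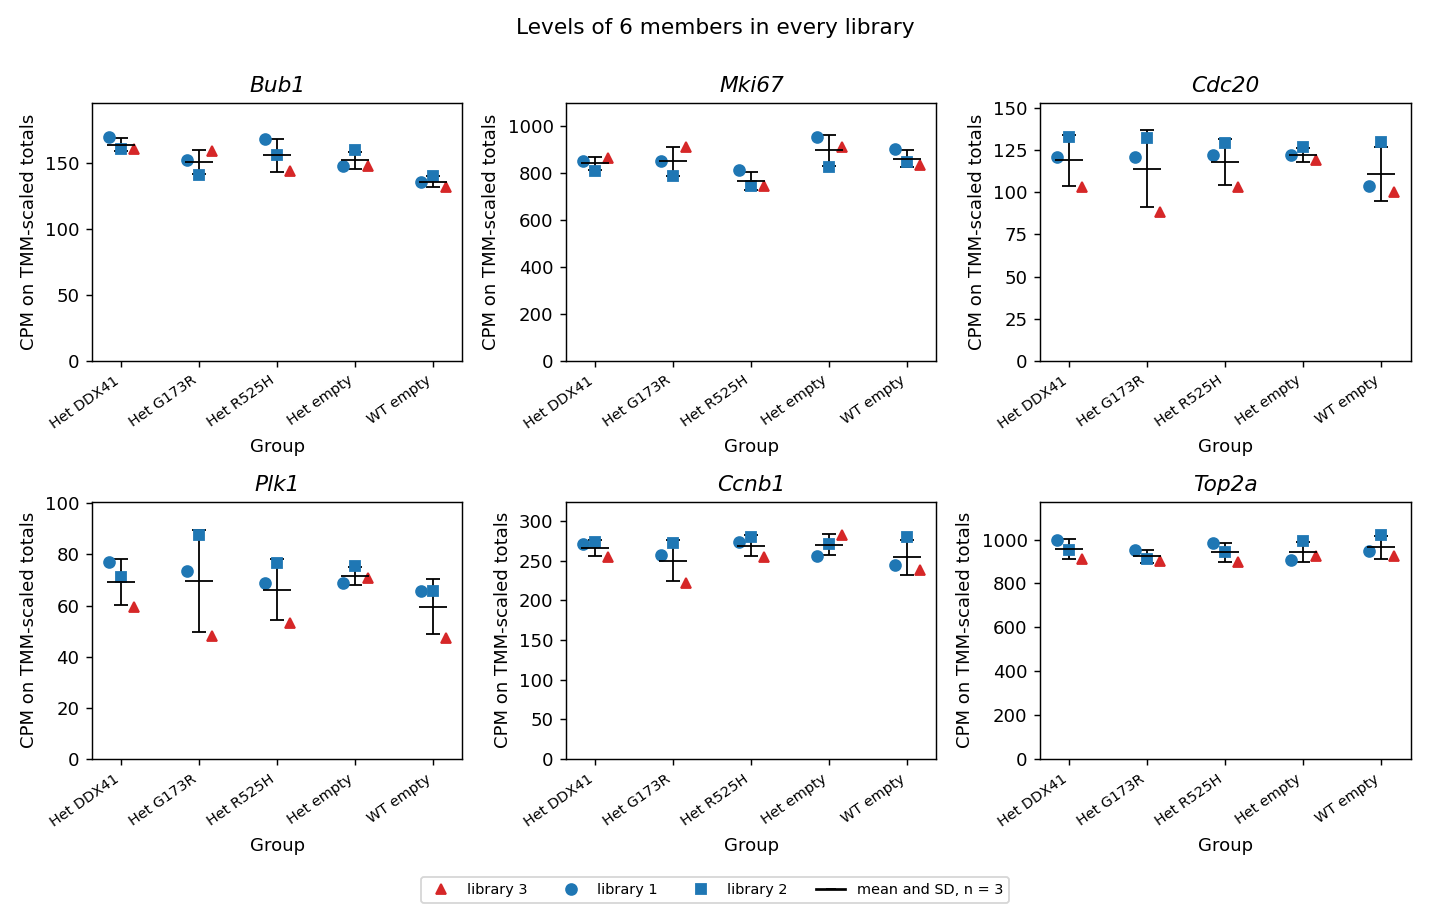
CPM on TMM-scaled totals of Bub1, Mki67, Cdc20, Plk1, Ccnb1 and Top2a in every library, by group, with the mean and SD of each group (n = 3; red triangles are libraries 3, blue circles libraries 1 and blue squares libraries 2). Bub1 is at 161 to 170 CPM in Het DDX41 and at 132 to 140 CPM in WT empty libraries, and Cdc20 is lowest in library 3 of every group.

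The vectors were also compared with each other. Between Het G173R and Het DDX41 0 of the 40 genes passed (edgeR, 0% of all genes; 1 of the 40 and 224 of all genes at an unadjusted p under 0.05; DESeq2 and limma voom 0 of the 40; with the number as a block 0 of the 40 and 0.00687% of all genes passed). That 1 gene was Spc25, at 31.8, 31 and 29.4 CPM in Het G173R and 37.1, 34.2 and 33.9 CPM in Het DDX41 libraries (log2 fold change -0.19, SE 0.084, adjusted p = 1, edgeR). Bub1 was at 152, 141 and 159 CPM in Het G173R, all below the 170, 161 and 161 CPM of Het DDX41 (-0.12, SE 0.071). Of the 40, 4 lay wholly lower in Het G173R, Bub1, Cenpe, Kif4 and Spc25, as 3.4% of all genes did, and 0 lay wholly higher, as 2.83% did. Pttg1 had the highest log2 fold change, 0.11, and Hmmr, Kif4, a chromosome-bound kinesin, and Ncapg were at -0.09, -0.08 and -0.1. The median was -0.05 with 11 of 40 above 0, and 0.013 with 22 above 0 without library 3 of Het G173R. That fit is unbalanced, because it keeps library 3 of Het DDX41. There, 35 of the 40 genes lay below the mean of libraries 1 and 2 (median -0.18 in log2 CPM).

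Between Het R525H and Het DDX41 0 of the 40 passed (edgeR, 0% of all genes; 0 of the 40 and 581 of all genes at an unadjusted p under 0.05; DESeq2 and limma voom 0 of the 40; with the block 0 of the 40 and 0.406% of all genes passed). Cenpa had the lowest value, at 65.5, 66.5 and 55.3 CPM in Het R525H against 67.8, 71.2 and 70.2 CPM in Het DDX41 libraries (-0.16, SE 0.076). Cenpa and Cdc25c lay wholly lower in Het R525H (5.51% of all genes did). Mki67, Spc25 and Cdc25b had log2 fold changes of -0.13, -0.12 and -0.14, and Ncapg of 0.09, the highest.

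The mutant vectors, Het G173R over Het R525H, also gave 0 of the 40 (edgeR; 12 of all genes, 0.0825%, passed; 1 of the 40 at an unadjusted p under 0.05; DESeq2 and limma voom 0 of the 40; with the block 0 of the 40 and 0.969% of all genes passed). Ncapg had the lowest log2 fold change, -0.19 (SE 0.077, adjusted p = 0.679, edgeR), at 117, 112 and 107 CPM in Het G173R and 126, 133 and 125 CPM in Het R525H libraries. Ncapg, Hmmr and Kif4 lay wholly lower in Het G173R, as 5.84% of all genes did. Cdc25b had the highest, 0.22 (SE 0.117), at 16.2, 17.9 and 20.3 CPM in Het G173R and 13.9, 15.8 and 17.1 CPM in Het R525H, with overlap. Mki67 was at 853, 789 and 912 CPM in Het G173R and at 812, 744 and 745 CPM in Het R525H (0.15, SE 0.074), also with overlap. Ndc80 and Kif4 had log2 fold changes of -0.13 and -0.09.

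Set against the wild-type cells, 1 of the 40 genes passed in Het DDX41 and 0 in Het G173R and Het R525H, where 4.54%, 3.79% and 6.68% of all genes passed (edgeR; 2, 0 and 2 of the 40 at an unadjusted p under 0.05; DESeq2 called 1 of the 40 in Het DDX41 and 1 in Het R525H). These 3 comparisons share the WT empty libraries. The gene that passed was Bub1, at 170, 161 and 161 CPM in Het DDX41 libraries and at 136, 140 and 132 CPM in WT empty libraries. Its means were 164 ± 4.84 CPM in Het DDX41 and 136 ± 3.85 CPM in WT empty cells (SD, n = 3 each), a log2 fold change of 0.27 (SE 0.071, 95% interval 0.12 to 0.43, adjusted p = 0.0437, edgeR with Benjamini-Hochberg adjustment), where 2.36% of all genes passed as higher. Bub1, Cenpe and Spc25 lay wholly higher in Het DDX41 than in WT empty libraries, as 10.5% of all genes did. The Bub1 call was lost when any 1 of the 6 libraries was left out (adjusted p 0.0873 to 0.182) while the log2 fold change stayed at 0.24 to 0.28, and it was also lost without a filter on low counts (adjusted p = 0.124) or with only the 2 groups in the fit (adjusted p = 0.0869). Over WT empty, Bub1 had log2 fold changes of 0.15 in Het G173R, 0.2 in Het R525H and 0.16 in Het empty. None of these passed in edgeR with group as the only term, and the differences between the groups with hi-Ddx41+/- cells did not pass either. Bub1 also lay wholly higher than WT empty in Het G173R and Het R525H, as 7.27% and 11.7% of all genes did. In Het R525H Ndc80 lay wholly higher too, and Mki67 lay wholly lower than in WT empty, as 11.8% of all genes did. With the library number as a block, 1 spindle assembly checkpoint gene passed as higher in Het DDX41 and 1 in Het R525H. In that setting 13% and 17.3% of all genes passed, and same-numbered libraries did not deviate together in every pair. In a test for any difference among the 5 groups 0 of the 40 passed (538 of all genes, 3.7%, did), Bub1 having the lowest adjusted p, 0.274.

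Cdc20, Kif11, Top2a, Cdk1 and Cenpf passed in no comparison between groups. Kif11 averaged 428 ± 27.1 CPM in Het DDX41, 428 ± 38.7 CPM in Het G173R, 408 ± 51.6 CPM in Het R525H, 439 ± 19.4 CPM in Het empty and 427 ± 37.6 CPM in WT empty libraries (SD, n = 3 each). Cenpf, a large kinetochore protein that appears in G2, averaged 181 ± 6.99 CPM in Het DDX41, 173 ± 7.49 CPM in Het G173R, 177 ± 3.32 CPM in Het R525H, 177 ± 12.4 CPM in Het empty and 169 ± 25 CPM in WT empty cells. Top2a was at 1000, 954 and 912 CPM in Het DDX41, at 954, 912 and 901 CPM in Het G173R and at 986, 944 and 897 CPM in Het R525H libraries. It was at 909, 995 and 924 CPM in Het empty and at 946, 1020 and 924 CPM in WT empty libraries, so that the 5 groups overlap.

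A difference shared by most of the 40 genes followed the library number. In libraries 3, 24 of the 40 were lower than in libraries 1 and 2 and 0 were higher (edgeR with group and number in the model and Benjamini-Hochberg adjustment over all genes), while 25% of all genes were lower and 21.1% higher. The median log2 fold change of the 40 was -0.18, beside -0.0035 over all genes. Values ran between -0.4 for Ube2c and 0.05 for Cdc25b. DESeq2 called 24 lower and limma voom 25. With any 1 of the 5 groups left out, 21 to 24 of the 40 were called lower and the median was -0.14 to -0.21.

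Cyclin A2, Ccna2, and Ttk separated the libraries in every group. Ccna2 was at 229, 226, 233, 253 and 246 CPM in libraries 3 of Het DDX41, Het G173R, Het R525H, Het empty and WT empty, and at 278 to 305 CPM in the 10 libraries numbered 1 and 2 (log2 fold change -0.31, SE 0.038, adjusted p = 2.8e-05, edgeR). Ttk, in the same order, was at 37.9, 36.9, 36.7, 37.1 and 35.8 CPM in libraries 3 and at 43.3 to 49.8 CPM in the others (-0.34, SE 0.039, adjusted p = 1.68e-05). Neither gene overlapped between libraries 3 and the others, nor did Espl1, Kif2c, Smc4, Nuf2, Spc24, Kif11, Birc5 and Ccnb2. The share of all genes without such overlap was not counted. Of all genes, 46.1% were called in this comparison. The largest falls were those of Ube2c, at 39.4 to 53.3 CPM in libraries 3 and 52.7 to 71.7 CPM in libraries 1 and 2 (-0.4, SE 0.064), and of Plk1, at 47.4 to 70.7 CPM in libraries 3 and 65.6 to 87.5 CPM in libraries 1 and 2 (-0.39, SE 0.076), both with some overlap.

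The counts by role stand beside the 25% of all genes that were called lower. By role, 3 of 4 separation genes fell: Ube2c, Espl1 (-0.3) and Cdc20 (-0.28), while Pttg1, at 0.0041, did not pass. Both chromosomal passenger genes fell, Birc5, survivin (-0.32), and Incenp (-0.23). Of the checkpoint genes 4 of 5 fell, Ttk, Bub1b (-0.26), Mad2l1 (-0.18) and Bub3 (-0.17), and Bub1 had a value of -0.04. Of cyclins and kinases 6 of 9 fell, Ccna2, Plk1, Aurka (-0.28), Ccnb2 (-0.21), Nek2 (-0.2) and Cdk1 (-0.19), and Ccnb1, Cdc25c and Cdc25b, at -0.1, -0.09 and 0.05, did not pass. Of the spindle genes 4 of 7 fell, Kif2c (-0.31), Kif20a (-0.3), Kif11 (-0.2) and Kif18b (-0.14), as did 3 of 6 chromosome structure genes, Ncapd2 (-0.22), Smc4 (-0.22) and Ncapg (-0.12). Of the centromere and kinetochore genes 2 of 7 fell, Spc24 (-0.28) and Nuf2 (-0.28), which is near the share of all genes. Both are subunits of the NDC80 complex, whose other subunits Spc25 and Ndc80 were at -0.03 and -0.01. Mki67 was at 0.02 and Top2a at -0.08, neither past the threshold.

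**Figure D4:**
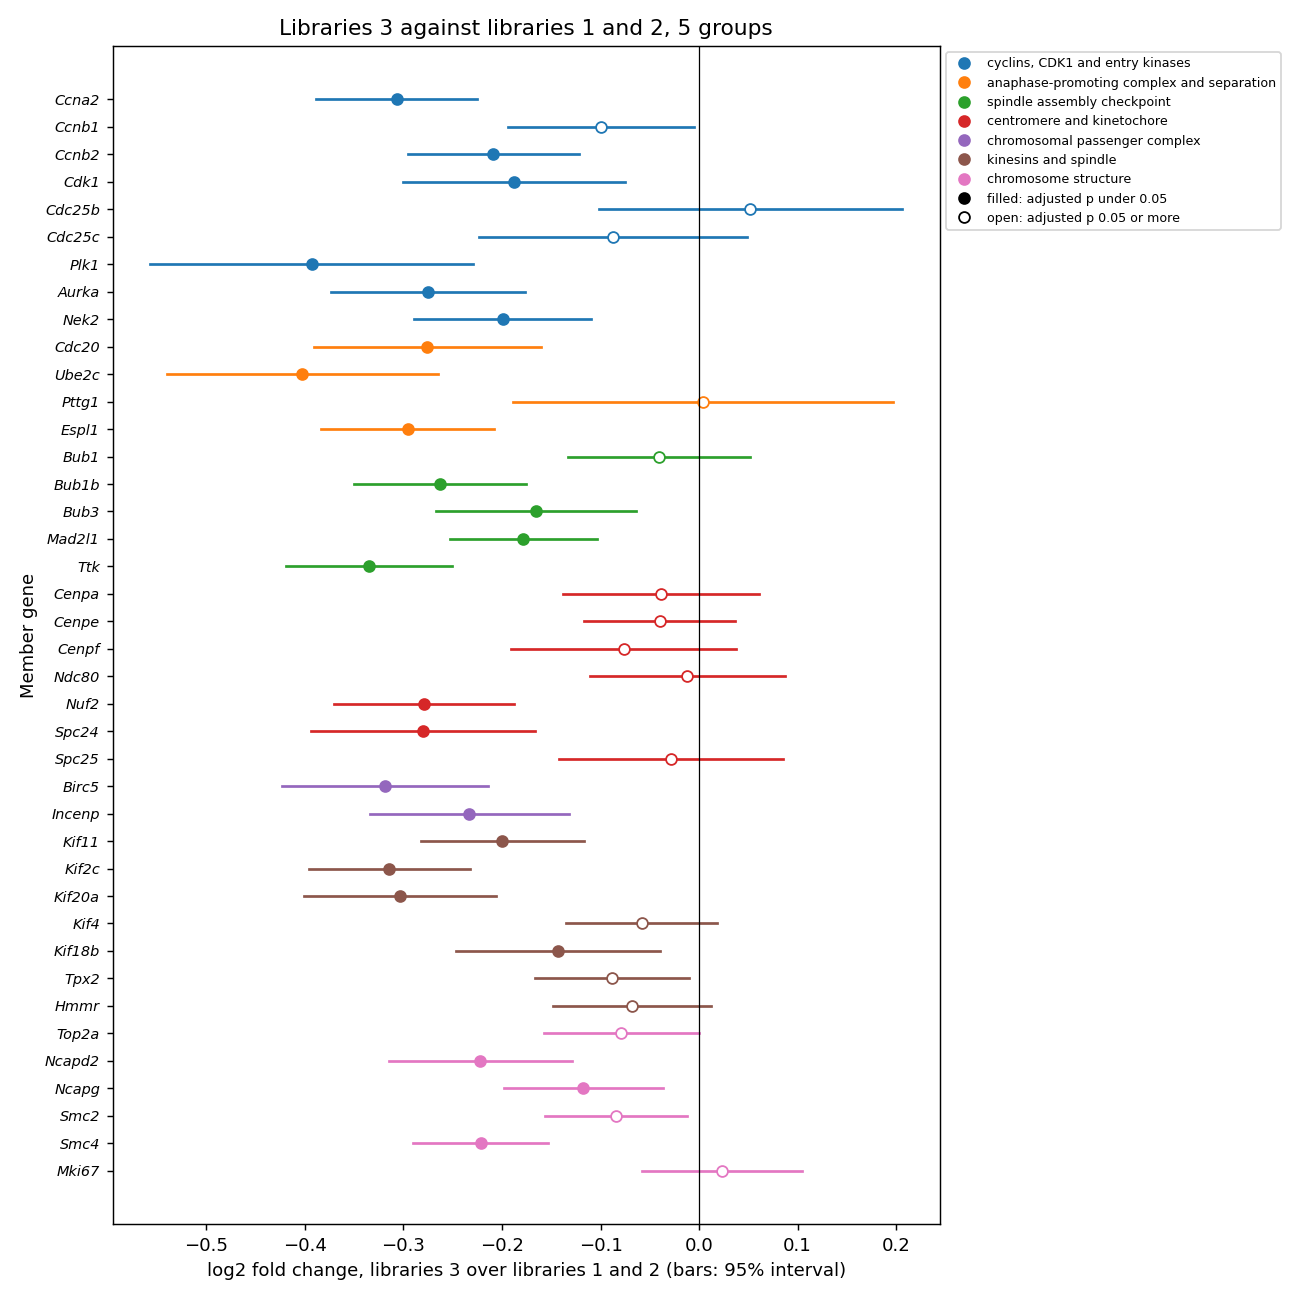
log2 fold change of each of the 40 genes in libraries 3 over libraries 1 and 2, with its 95% interval, from the edgeR model with group and number, in order of role. Filled points (24 genes) passed an adjusted p of 0.05, and the lowest are Ube2c at -0.403 and Plk1 at -0.393; the open points include Mki67, Pttg1 and 5 of 7 centromere and kinetochore genes.

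In each group most of the 40 genes were lower in library 3. On the log2 CPM scale, library 3 lay below the mean of libraries 1 and 2 for 35 of the 40 genes in Het DDX41 (median -0.18), for 34 in Het G173R (median -0.23), for 36 in Het R525H (median -0.26), for 32 in Het empty (median -0.06) and for 37 in WT empty cells (median -0.17). Whether the groups differ in this was not tested. The sum over the 40 genes was 6733 CPM in library 3 of Het DDX41, 6579 in Het G173R, 6452 in Het R525H, 7122 in Het empty and 6613 CPM in WT empty, against 7126 to 7543 CPM in the libraries numbered 1 and 2. Of the 40 genes, 26 were below in all 5 groups, and Cdc25b, Pttg1, Cenpa and Mki67 were below in 2.

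Cdc20 and Cdk1 show the same split. Cdc20 was at 103, 88.2 and 103 CPM in the third libraries of the DDX41, G173R and R525H vectors and at 119 and 100 CPM in those of Het empty and WT empty, against 104 to 133 CPM in libraries 1 and 2. Cdk1 was at 182, 172, 147, 196 and 178 CPM in libraries 3, in the same order of groups, and at 182 to 210 CPM in the others. Its value leaned on library 3 of Het R525H, and without that group it was -0.11 and did not pass (adjusted p = 0.0961, edgeR). Ncapg did not pass without Het empty or without Het DDX41 (adjusted p 0.0675 and 0.0694), Bub3 without Het G173R or Het R525H (0.0603 and 0.106), and Kif18b without any 1 of the 3 DDX41 vector groups (0.11 to 0.204).

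**Figure D5:**
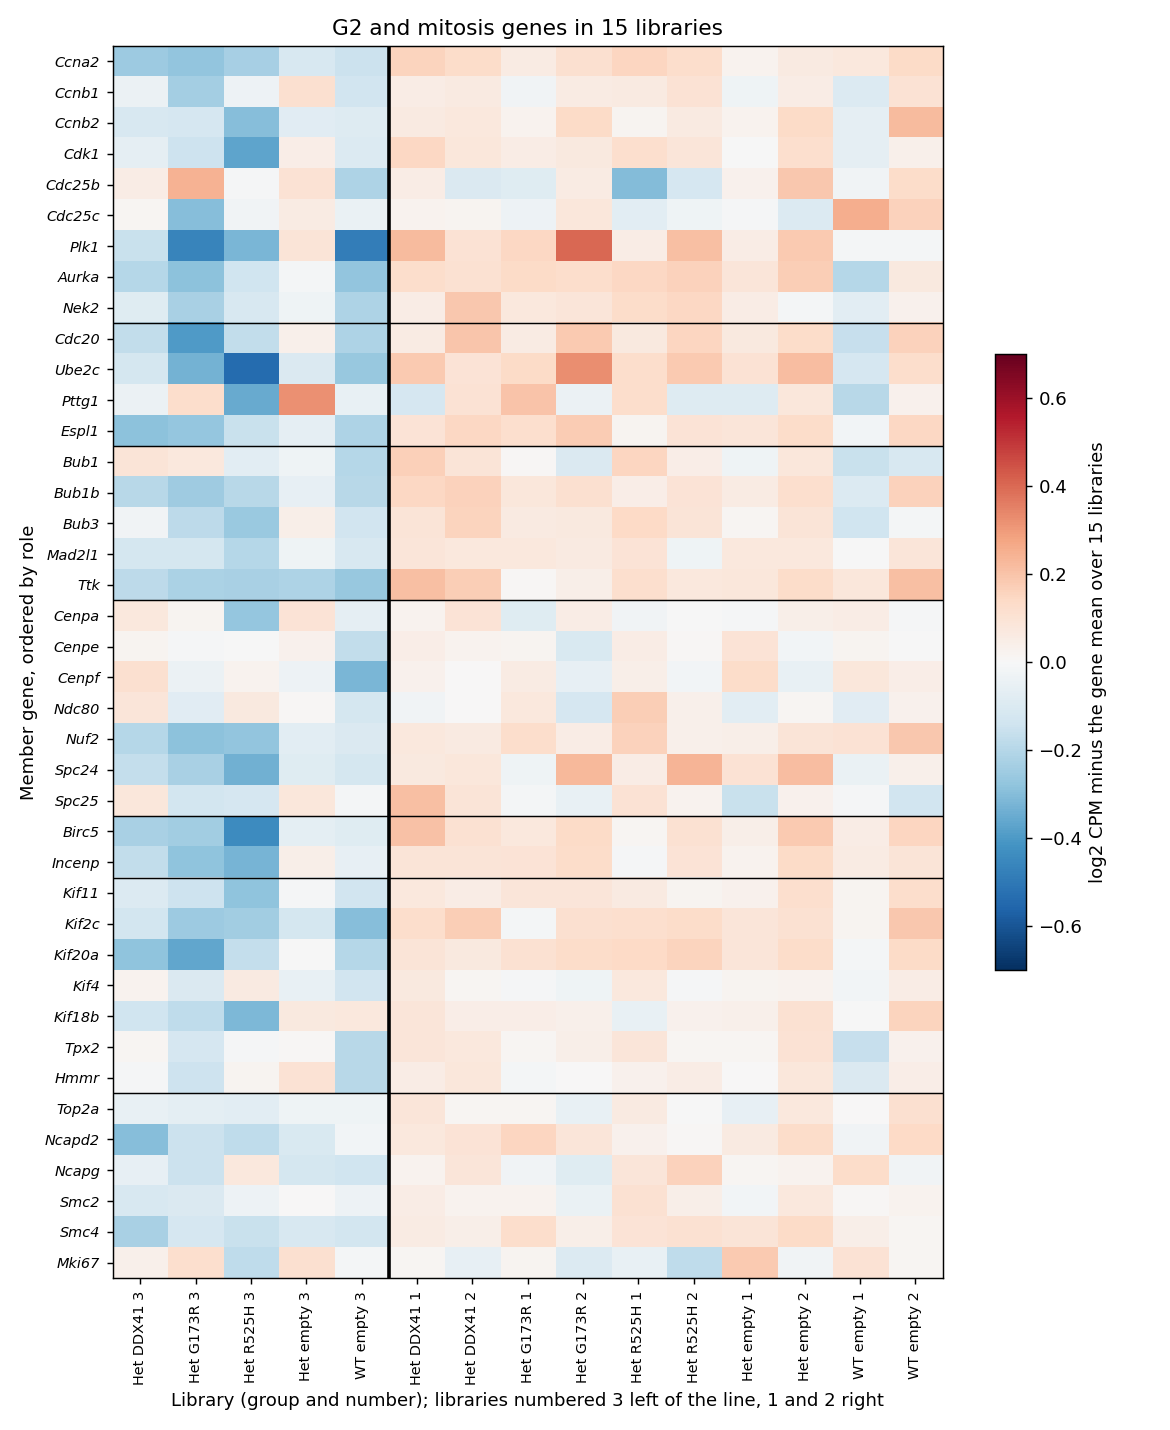
log2 CPM of each of the 40 genes (rows, grouped by role) in each library, minus the gene's mean over 15 libraries. Columns left of the heavy line are the 5 libraries numbered 3 and columns right of it are libraries 1 and 2; the rows of Ccna2, Ttk and Birc5 are blue in all 5 libraries 3, while Mki67, Cdc25b and Pttg1 are mixed.

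The promoter letters were counted in both sets. Of the 19 genes called lower with a window, 15 held the homology region letters, and of the 14 not called with a window, 11 did. Regulators of these promoters were looked at beside them. Foxm1, which drives late cell cycle genes, was at 40.8 to 48.5 CPM in libraries 3 and 50.1 to 61.3 CPM in the others (-0.29, adjusted p = 9.9e-05, edgeR), and Mybl2, the MYB of MYB-MuvB, had a log2 fold change of -0.33 (adjusted p = 0.00338). Mybl2 was at 97.1, 104 and 118 CPM in library 3 of Het DDX41, of Het G173R and of Het R525H and at 139 CPM in those of both empty vector groups, against 131 to 161 CPM in libraries 1 and 2. Lin9, of the MuvB core, was at -0.01 (adjusted p = 0.874). Aurkb, Aurora B, the kinase of the chromosomal passenger complex, had a value of -0.25 (adjusted p = 0.00558).

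In other lists, 61 of 113 other G2 and mitosis genes were lower in libraries 3 and 4 higher (median -0.12), and of 40 genes of DNA replication and S phase 29 were lower and 0 higher (median -0.2). Marker lists of blood cell types were also compared between these libraries, where 25% of all genes were lower and 21.1% higher. Neutrophil genes summed to 861 to 1270 CPM in libraries 3 and 1510 to 2640 CPM in libraries 1 and 2 (5 of 10 tested lower, 2 higher). Progenitor genes summed to 2830 to 3290 CPM in libraries 3 and 3180 to 3670 CPM in the others (4 of 7 tested lower, 1 higher). Mast cell and basophil genes summed to 116 to 171 CPM in libraries 3 and 133 to 249 CPM in the others (3 of 6 tested lower). Monocyte and macrophage genes summed to 212 to 400 CPM in libraries 3 and 169 to 314 CPM in the others (3 of 6 tested higher). Lymphoid genes summed to 13.6 to 44.9 CPM in libraries 3 and 10.9 to 36.7 CPM in the others (4 of 5 tested higher). Erythroid genes summed to 913 to 992 CPM in libraries 3 and 903 to 1020 CPM in the others (0 called of 6 tested). Of these sums only those of neutrophil genes did not overlap between libraries 3 and the others. The 6 liver cell and stroma markers summed to 0.285 to 1.3 CPM in libraries 3 and 0.0277 to 0.576 CPM in the others, and the 1 of them with enough counts to be tested was higher in libraries 3. Fcer1a and Hba-a1 were at 0 in every library. The part of these cells in the fall was not tested.

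Between groups, Cep55 was the 1 gene of the 113 other G2 and mitosis genes that passed in any comparison with group as the only term. Cep55, which recruits the machinery that cuts the bridge between daughter cells, was at 66.8, 63.3 and 55.7 CPM in Het R525H and at 91.9, 97.8 and 93.1 CPM in Het empty libraries, without overlap (log2 fold change -0.6, SE 0.082, adjusted p = 0.0308, edgeR). It was at 101, 95.4 and 97.1 CPM in Het G173R, where it was higher than in Het R525H by 0.66 (adjusted p = 0.0195). In Het DDX41, at 73.4, 74.4 and 63.6 CPM, it was lower than in WT empty cells, at 92.5, 97.3 and 86.6 CPM (-0.39, adjusted p = 0.0131), and so it was in Het R525H (-0.57, adjusted p = 0.000561). Over Het empty, Cep55 was also lower in Het DDX41 (-0.42, SE 0.082, adjusted p = 0.9998, edgeR), but this did not pass. Nor did it pass between Het R525H and Het DDX41 (-0.19, SE 0.082). Of all genes, 0.0137% passed between Het R525H and Het empty and 0.0825% between Het G173R and Het R525H. Over WT empty, 4.54% passed in Het DDX41 and 6.68% in Het R525H. Both Cep55 calls between heterozygous groups were lost with only the 2 groups in the fit (adjusted p 0.307 over Het empty and 0.411 for Het G173R over Het R525H, edgeR). Leaving out 1 library at a time kept the call over Het empty in 1 of 6 fits (adjusted p 0.0444 to 0.148, log2 fold change -0.672 to -0.544) and that of Het G173R over Het R525H in 2 of 6 (adjusted p 0.0157 to 0.1). Over WT empty the call in Het R525H passed in all 6 such fits and that in Het DDX41 in 5, missing without library 2 of WT empty (adjusted p = 0.0511).

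With the library number as a block, other calls appeared in comparisons where the numbers paired the libraries (edgeR). Nsl1, a kinetochore subunit (log2 fold change -0.27, adjusted p = 0.0305), and E2f8, a repressor of the E2F family (-0.32, adjusted p = 0.0094), passed as lower in Het empty than in WT empty, where 9.29% of all genes passed. Cep55 passed as higher in Het G173R than in Het DDX41 (0.48, adjusted p = 0.0288), where 0.00687% of all genes passed. Over Het empty, with group as the only term, the log2 fold changes of the 40 in Het R525H lay between -0.25 and 0.13 and none passed.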

How the data were processed

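Total RNA of 15 libraries (5 groups of 3) was depleted of rRNA and made into stranded libraries with an Illumina TruSeq kit, per the labels' protocols. The authors deposited 1 gene table per library with RSEM columns; per the file headers these hold the expected count, TPM and FPKM of each gene. RSEM is named in the submitters' processing notes. No source used here states the genome build, the annotation or the RSEM version. Deposited expected counts were rounded to whole numbers (6.26 to 6.92% of the values in a library were not whole), since RSEM shares reads between similar genes; members with close copies were not checked for this. Deposited TPM were used only to compare genes within the tables, because 1 gene took 14.5 to 24.7% of a library's TPM. Deposited FPKM were not used.

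Genes were filtered with filterByExpr (14548 kept, 99.95 to 99.97% of counts), scaled by TMM (factors 0.9687 to 1.057) and tested in edgeR 4.0.16 (R 4.3.3; quasi-likelihood F test, group as the only term, all 15 libraries, common dispersion 0.0369), with Benjamini-Hochberg adjustment over all 14548 genes and a threshold of 0.05. Libraries 3 were set against libraries 1 and 2 with group and number as terms. DESeq2 1.42.0, limma voom 3.58.1, another scaling, no filter, a replicate block, the 2 groups alone, libraries 1 and 2 alone and each library left out were the alternatives; those for the comparisons of the 3 DDX41 vectors with WT empty, and libraries 2 against 1, were added after the data were seen. The scripts were tested on simulated data. Groups follow the sample titles; the file names of 12 libraries carry another group's code.

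The 40 genes, the other gene lists and the tests were chosen with earlier results of these data known. Genes named are those called in any comparison, in each of 7 comparisons the 5 with the smallest p and those with the highest and lowest log2 fold change, the 3 highest and 3 lowest in TPM, and Ccnb1, Cdk1, Plk1, Cdc20, Bub1, Cenpf, Kif11, Top2a and Mki67; genes named for groups without overlap or for their role in the comparison of libraries were chosen after their values were seen. Of the other G2 and mitosis genes, those called between groups and Foxm1, Mybl2, Aurkb and Lin9 are named. The many called for libraries 3 are given as counts, with the 5 of the smallest p named after their values were seen, as were the S phase genes. Same-numbered libraries deviated together in 5 of the 7 main comparisons (correlations of their deviations from group means 0.181 to 0.707); Het DDX41 and Het R525H against Het empty did not meet this in every pair. The pairing comes from the data, since the labels do not say what a number marks.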

Additional observations from a re-analysis of the deposited data

How the results depend on the processing

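In the 7 main comparisons between groups no alternative called any of the 40 genes. With the replicate block the count also stayed at 0 in each, including the 5 in which numbers paired the libraries, and the adjusted p of Bub1 in Het DDX41 over WT empty was 0.0104. Over WT empty, the 1 gene called higher in Het DDX41 (Bub1) became 0 with no filter on low counts, 0 with only the 2 groups in the fit, and 0 to 0 without any 1 library; in Het R525H the 0 called became 1 with the replicate block, 1 with DESeq2 and 1 in libraries 1 and 2 alone. Among 520 values of single genes between groups 506 kept sign and side of the threshold, 8 lost the call (Bub1) and 6 changed sign; among 216 values for libraries 3, 208 kept both and 8 lost the call. The 6 changes of sign were all Ncapd2 in Het G173R over Het empty, at 0.00088: -0.00289 with no filter, -0.000799 with the block, -0.00253 with limma voom and -0.0703 to 0.0738 without 1 library (-0.0694 without Het empty 3, -0.0703 and -0.025 without Het G173R 1 and 2). The cause was not tested. Counts over all genes moved more than those of the 40: for Het empty, Het DDX41, Het G173R and Het R525H over WT empty, 532, 661, 551 and 972 genes became 1352, 1887, 1453 and 2522 with the block, 1068, 1307, 1133 and 1904 in libraries 1 and 2, and 804, 1053, 840 and 1438 with DESeq2; with only the 2 groups 661, 551 and 972 became 396, 278 and 610, and 661 and 972 reached as low as 399 and 604 without 1 library. For Het R525H over Het empty 2 became 63, 19 and 59 with those first 3 settings, 5 with no filter, 3 with DESeq2 size factors and 0 with only 2 groups. For Het R525H over Het DDX41 0 became 59, 14 and 36, for Het G173R over Het DDX41 1, 1 and 3, and for Het G173R over Het R525H 12 became 141, 38 and 117, and 8 with limma voom and 0 with only 2 groups; DESeq2 gave 3 for Het DDX41 and 2 for Het G173R over Het empty. Of the 113 other G2 and mitosis genes, the calls over WT empty went with the block to 6 for Het DDX41 (1 without), 3 for Het G173R (0) and 8 for Het R525H (1). Same-numbered libraries did not deviate together in every pair there. In the same order of groups, the correlations for libraries 1 were -0.0805, 0.0962 and 0.0228, and those for libraries 2 and 3 were 0.193 to 0.459. With 3 libraries a group the median SE of the 40 genes was 0.104 on the log2 scale, which limits how small a change could be resolved.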

Other observations

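Genes of DNA replication and S phase, which precede the mitotic genes in the cell cycle, summed over 40 genes to 5975 CPM in library 3 of Het DDX41, 6124 CPM in that of Het G173R and 6327 CPM in that of Het R525H, to 7135 CPM in that of Het empty and to 7190 CPM in that of WT empty. Libraries 1 and 2 of all groups held 7093 to 7888 CPM. Between groups, none of the 40 S phase genes passed in the 7 main comparisons with group as the only term (edgeR with Benjamini-Hochberg adjustment, 0 to 2 at an unadjusted p under 0.05). Over WT empty, Pole, the catalytic subunit of DNA polymerase epsilon, was lower in Het DDX41 (log2 fold change -0.22, adjusted p = 0.0458) and in Het R525H (-0.27, adjusted p = 0.00952), and Tyms, thymidylate synthase, was lower in Het R525H (-0.36, adjusted p = 0.0332). Leaving out any 1 library ended the calls of Pole in Het DDX41 (adjusted p 0.0666 to 0.135) and of Tyms (0.0518 to 0.115) but not that of Pole in Het R525H (0.0151 to 0.0379), which was lost with no filter on low counts (0.0665) and with only the 2 groups in the fit (0.0742). With the library number as a block, Tyms passed as lower in Het R525H than in Het empty (-0.35, adjusted p = 0.0427, edgeR), where 0.433% of all genes passed. Same-numbered libraries of these groups did not deviate together in every pair. Of the 113 other G2 and mitosis genes, 65 passed between libraries 3 and libraries 1 and 2 (edgeR). The 5 with the smallest p were Kif20b, a kinesin of cytokinesis, lower in libraries 3 (-0.39, adjusted p = 8.59e-07), Cdca2, which directs a phosphatase to chromosomes, lower (-0.35, adjusted p = 1.07e-05), Rb1, a repressor of cell cycle genes, higher (0.48, adjusted p = 1.95e-05), Aspm, a spindle pole protein, lower (-0.29, adjusted p = 1.95e-05), and Wee1, the kinase that restrains CDK1, lower (-0.36, adjusted p = 2.48e-05).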
